A study of Mus musculus with 2 samples.

Results

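The genes described here are Impact and 9 genes of the eIF2 kinase system. They are the kinase Eif2ak4 (GCN2) and its activator Gcn1, the kinases Eif2ak1 (HRI), Eif2ak2 (PKR) and Eif2ak3 (PERK), the kinase substrate Eif2s1 (eIF2 alpha), the eIF2B subunit gene Eif2b4, the ABCF protein gene Abcf3 and the phosphatase subunit gene Ppp1r15b. Members were all probe sets whose platform annotation, updated to current symbols, named exactly 1 of these genes. The rule gave 27 probe sets of 9 genes, out of 34958 probe sets with 1 symbol, of 18194 genes, and 45101 probe sets in all. No probe set in the annotation used was tied to Eif2s1 alone, so the substrate itself was not analysed here.

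The groups were whole embryos of the mouse, taken at 8.5 days post coitum, with a maternal uniparental disomy of the whole of chromosome 18 (matUPD18) and embryos of the same age with the paternal disomy (patUPD18). Each kind carries 2 copies of chromosome 18 from a single parent, so biparental inheritance is absent from both groups, and no biparental control was analysed here. RNA of each kind was amplified and hybridised to 1 Affymetrix array of the design that the titles call 430. The sources used here give neither the crosses nor how many embryos made up each RNA. With 1 array per genotype there was no test, and every difference below is a description of these arrays whose precision the number of arrays limits.

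The kinases of this system phosphorylate the alpha subunit of eIF2, the factor that brings the initiator tRNA to the ribosome. Phosphorylated eIF2 blocks its own exchange factor, eIF2B, which lowers protein synthesis in general while favouring translation of the transcription factor ATF4. GCN2 answers amino acid shortage and needs GCN1 on the ribosome, PERK answers unfolded protein in the endoplasmic reticulum, PKR answers double-stranded RNA and HRI answers haem shortage. IMPACT binds GCN1 and keeps it from GCN2. The mouse Impact gene is imprinted and is read from the paternal chromosome.

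Values are MAS5 signal intensities as deposited. A probe set was called measurable where it reached the 60th percentile of either array, 190.1 for matUPD18 and 184.9 for patUPD18. Before log2 ratios of matUPD18 over patUPD18 were taken, signals under the 40th percentile were raised to it (84.2 for matUPD18 and 82.5 for patUPD18). Of the 27 member probe sets, 15 were measurable and 12 were not, and they covered 8 of the 10 genes. The probe set with the highest mean over the arrays, called the brightest, stood for its gene. Levels of different probe sets cannot be set against each other on such arrays, so only the groups were compared.

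The whole-series picture bears on these genes in 3 ways. The median signals of the arrays were 125.4 (matUPD18) and 122.0 (patUPD18), and the ratio of the 3' to the 5' control of Gapdh was 33.95 (matUPD18) and 36.4 (patUPD18), so probe sets far from a 3' end can read low. All 18 bacterial and phage control probe sets (BioB, BioC, BioD and Cre) read lower in matUPD18, with a median log2 ratio of -0.56. Scaling the arrays to these controls instead of to a common mean moved the median log2 ratio of all genes to 0.52, against -0.04 as deposited, so directions below are relative to the bulk of genes. That scaling adds 0.56 to ratios of signals above the floor, so one between -0.56 and 0 turns positive under it. Among tissue markers, all 11 yolk sac visceral endoderm genes passed 2-fold towards matUPD18, with signals that summed to 34959 in matUPD18 and 4968 in patUPD18. Of these, only Afp, Ttr and Rbp4 also reached the measurable limit of patUPD18. The others were measurable only through matUPD18, and Apoa1, Apoa4, Apoc2, Apom and Cubn were under the floor in patUPD18. For genes under that floor a 2-fold difference followed from the limits. Of the primitive red cell genes, 6 of 9 measurable ones passed 2-fold towards patUPD18 (1 of 9 with scaling to the controls). All 3 measurable paraxial mesoderm and tail bud genes were higher in patUPD18, with a median log2 ratio of -1.30, and 2 of them passed 2-fold (1 with scaling to the controls). Msgn1, 1 of these 2, was measurable only through patUPD18 and under the floor in matUPD18, so its 2-fold difference followed from those limits. Of the neural tube markers, 5 of 5 were measurable, 4 were higher in matUPD18 and the median log2 ratio was 0.13. Only Hes5 was higher in patUPD18, past 2-fold (-1.12, or -0.56 with scaling to the controls). That scaling put 2 neural tube markers past 2-fold towards matUPD18 and 0 towards patUPD18. Of the heart markers, 4 of 5 were measurable and 0 passed 2-fold. The part of these tissues in the members' values was not tested.

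As deposited, Impact was the only one of the 8 measurable member genes to differ by 2-fold. Its brightest probe set, 1415911_at, gave 328.4 in matUPD18, against 2466 in patUPD18. The matUPD18 value was thus 7.51-fold lower (log2 ratio -2.91), yet it remained above the measurable limit of that array. Among the 524 measurable genes of like mean signal, 2.48% differed by 2-fold or more in either direction, and Impact had the largest difference. Over all measurable genes, 1.78% passed 2-fold towards patUPD18 and 2.7% towards matUPD18.

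The other measurable probe set of Impact ran the opposite way. Probe set 1446750_at gave 268.2 in matUPD18, against 205.3 in patUPD18, which is 1.31-fold higher in matUPD18 (log2 ratio 0.39). It ranked 307th in size among 835 probe sets of like signal, so this difference is an ordinary one for probe sets of that brightness. Probe set 1446751_s_at gave 97.3 in matUPD18, against 52.5 in patUPD18, below the measurable limit on both arrays and below the floor in patUPD18, so no order was read from it. The annotation ties the bright probe set to the RefSeq mRNA of Impact. It ties the other 2 to a single shared sequence record that is not a RefSeq mRNA, so they are not independent of each other. The sources used here do not say which part of the transcript each probe set reads.

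This disagreement between probe sets of Impact was the largest of any gene with at least 2 measurable probe sets. The log2 ratios of its 2 measurable probe sets lay 3.29 apart, which ranked 1st among 4005 such genes. Most of this spread was the -2.91 of the bright probe set. The other, at 0.39, read near the measurable limit on both arrays. The next largest spread was 3.15, the 95th percentile was 1.46 and the median was 0.48. Opposite directions among the probe sets of a gene were common in themselves, occurring in 1987 of the 4005 genes (49.6%). Of 129 genes with a 2-fold difference in their brightest probe set and another measurable one, 84 had all other probe sets in the same direction and 35 (27.1%), Impact among them, had all others in the opposite direction.

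**Figure D1:**
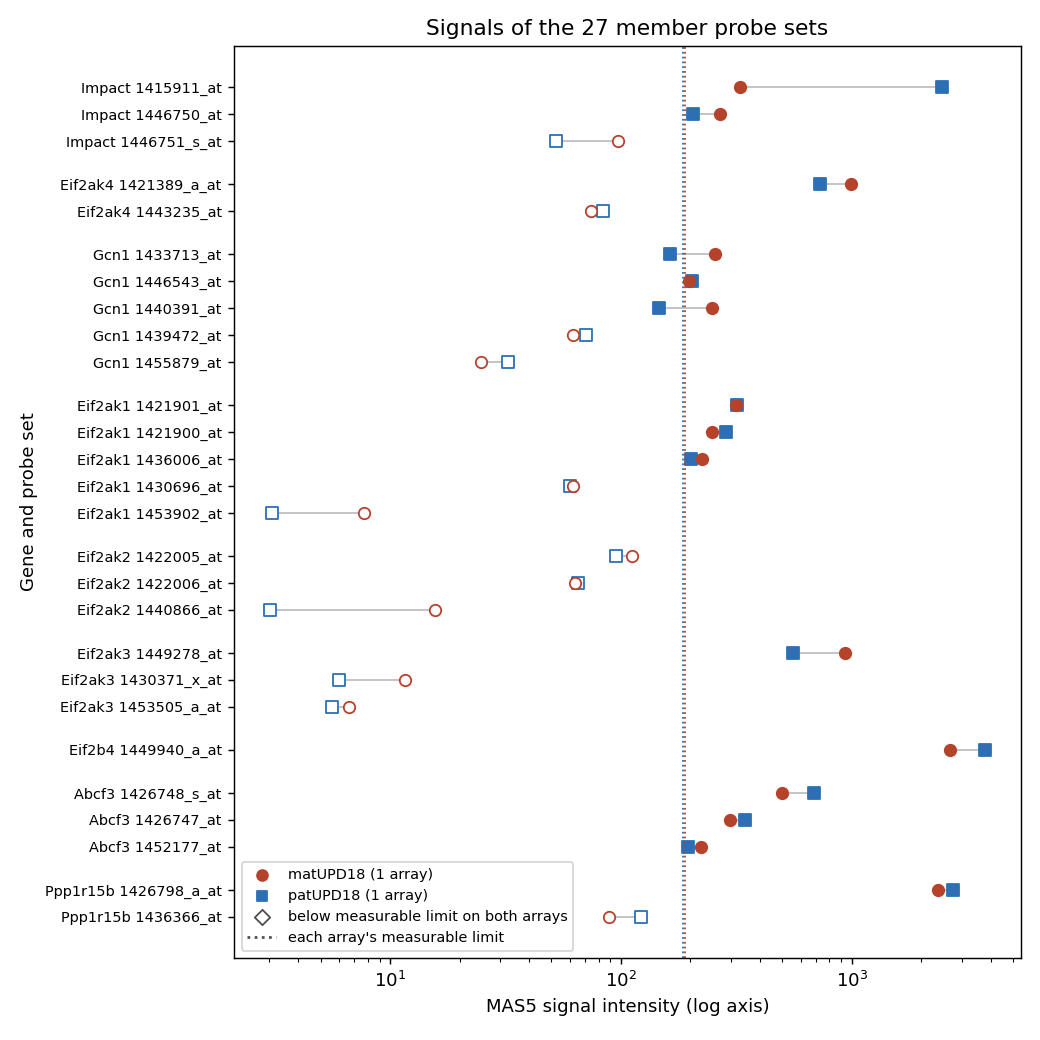
MAS5 signal intensity on a log axis for each of the 27 member probe sets, with matUPD18 as circles and patUPD18 as squares (1 array each), open where a probe set was below the measurable limit on both arrays. Probe set 1415911_at of Impact stands at 328.4 in matUPD18 and 2466 in patUPD18, while the paired symbols of other measurable probe sets lie close together.

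**Figure D2:**
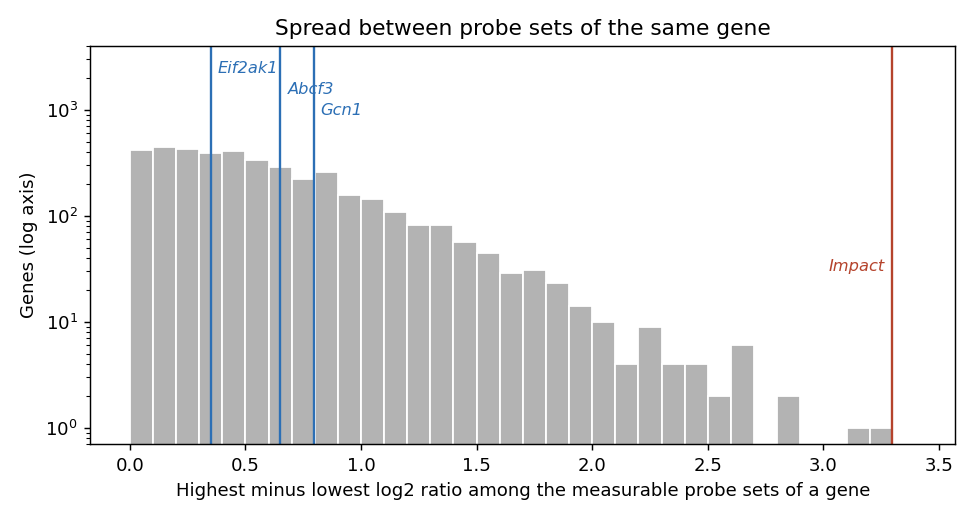
Histogram (log count axis) of the highest minus the lowest log2 ratio among the measurable probe sets of a gene, for 4005 genes. Impact stands at the far right at 3.29, while Gcn1, Abcf3 and Eif2ak1 lie at 0.80, 0.65 and 0.35.

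**Figure D3:**
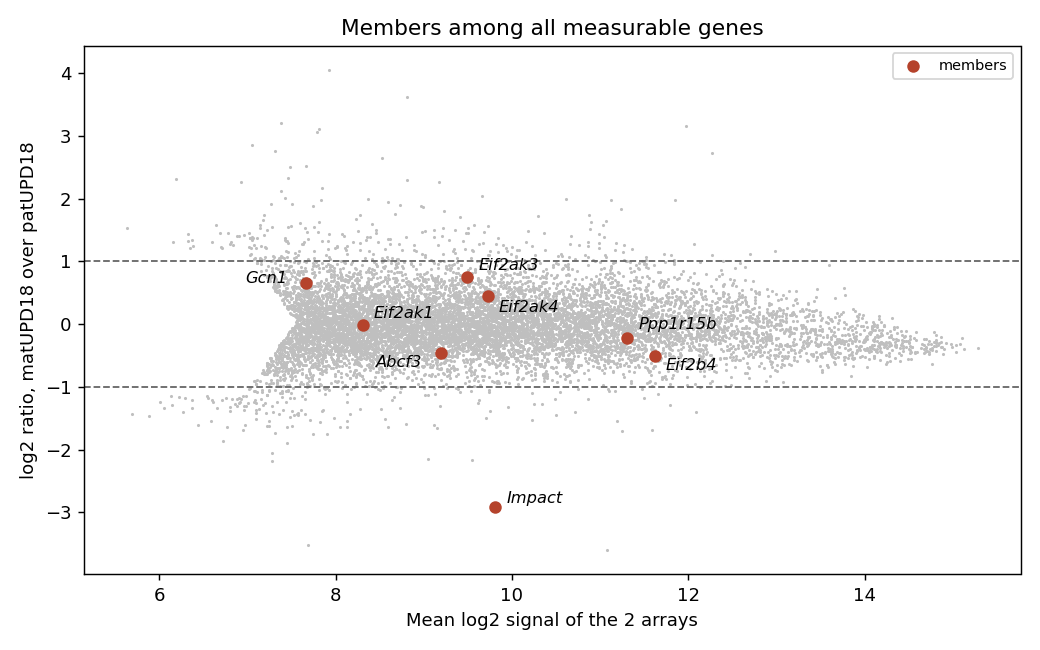
Log2 ratio of matUPD18 over patUPD18 against the mean log2 signal of the 2 arrays, for 10485 measurable genes (grey) and the 8 measurable members (red circles), with dashed lines at 2-fold. Impact lies at -2.91, and the other 7 members lie inside the 2-fold lines.

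The partners through which IMPACT acts, Eif2ak4 and Gcn1, read somewhat higher in matUPD18, within 2-fold as deposited. With scaling to the hybridisation controls their log2 ratios were 1.01 and 1.21, past 2-fold, where the median of all genes was 0.52. Eif2ak4 read 987.1 in matUPD18 and 725.0 in patUPD18 by its only measurable probe set, 1.36-fold higher in matUPD18 (log2 ratio 0.45). Of all measurable genes, 69.7% had a ratio closer to 0. Its other probe set, at 74.5 in matUPD18 and 83.3 in patUPD18, was not measurable.

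Gcn1, the ribosome-bound protein that IMPACT occupies, read 254.8 in matUPD18 and 162.4 in patUPD18 by its brightest probe set, 1.57-fold higher in matUPD18 (log2 ratio 0.65). A second probe set gave 247.2 in matUPD18, against 145.6 in patUPD18, with a similar log2 ratio of 0.76. The remaining measurable one, at 197.9 in matUPD18 and 202.4 in patUPD18, was 1.02-fold apart. All were near the measurable limit, where the patUPD18 signals of the first 2 fell below it. Among genes of like signal to Gcn1, 6.68% differed by 2-fold or more, a wider scatter than the 2.48% around Impact. The last 2 Gcn1 probe sets were not measurable.

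Abcf3 is a relative of yeast GCN20, the partner of GCN1 in that species. Its brightest probe set gave 500.3 in matUPD18, against 687.5 in patUPD18, with a log2 ratio of -0.46. A second read 295.6 in matUPD18 and 344.0 in patUPD18 and had the same direction (-0.22). The third read 223.1 in matUPD18 and 195.1 in patUPD18 and had the opposite one (0.19). The 3 probe sets lay 0.65 apart, which is more than the median spread of 0.48 and larger than any of their own differences from 0. Of all genes, 71.1% had a ratio closer to 0.

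Among the other kinases, Eif2ak3 differed most and Eif2ak1 least. Eif2ak3, the kinase of endoplasmic reticulum stress, read 936.2 in matUPD18 and 555.9 in patUPD18, 1.68-fold higher in matUPD18 (log2 ratio 0.75). With scaling to the hybridisation controls the log2 ratio was 1.32, past 2-fold. This was the largest difference of the members after Impact, and 89.7% of genes lay closer to 0. It rests on 1 measurable probe set, since the other 2 read at most 11.7 in matUPD18 and 6.01 in patUPD18. At least 1.5-fold differences in this direction were seen in 9.97% of all measurable genes, and Eif2ak3 and Gcn1 were the 2 members among them. The brightest Gcn1 probe set was measurable only through matUPD18. With the floor at the 60th percentile the log2 ratio of Gcn1 was 0.46, below 1.5-fold.

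Eif2ak1, the haem-sensing kinase that is abundant in red cell precursors, read alike on the arrays. Its brightest probe set gave 314.8 in matUPD18, against 318.2 in patUPD18 (log2 ratio -0.02). The next gave 247.9 in matUPD18, against 284.3 in patUPD18 (-0.20), and the last 224.3 in matUPD18, against 201.9 in patUPD18 (0.15). All 3 lay within the spread that is usual between probe sets of a gene, whose pooled standard deviation was 0.44. The 9 measurable primitive red cell markers were all higher in patUPD18, with a median log2 ratio of -1.35. Over 10 genes their signals summed to 46420 in matUPD18 and 71418 in patUPD18. Their part in the Eif2ak1 values was not tested. In whole embryos fewer cells of a type and less RNA per cell cannot be told apart.

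Eif2ak2, the double-stranded RNA kinase and a gene induced by interferon, did not reach the measurable limit with any of its 3 probe sets. The brightest gave 111.5 in matUPD18, against 95.2 in patUPD18, and the second gave 63.3 in matUPD18, against 64.9 in patUPD18. The third read 15.7 in matUPD18 and 3.02 in patUPD18. The last pair is 5.20-fold apart as deposited, but both values lie under the floor and no order was read from it. At this signal no difference was detectable.

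Downstream of the kinases, the members Eif2b4 and Ppp1r15b read slightly lower in matUPD18. Eif2b4, the delta subunit of eIF2B, read 2651 in matUPD18 and 3763 in patUPD18 by its only probe set (log2 ratio -0.51), and 75.4% of genes lay closer to 0. Ppp1r15b, the constitutive subunit that directs protein phosphatase 1 to eIF2 alpha, read 2351 in matUPD18 and 2738 in patUPD18 (log2 ratio -0.22), and 39.5% of genes lay closer to 0. Its second probe set, not measurable, read 89.1 in matUPD18 and 121.6 in patUPD18. With the arrays scaled to the hybridisation controls, the log2 ratios of Eif2b4, Abcf3 and Ppp1r15b were 0.06, 0.11 and 0.34, all still below the median of 0.52 that all genes had under that scaling.

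Without Impact, no member passed 2-fold as deposited and their median lay close to that of all genes. Of the 7 other measurable genes, 3 leaned to matUPD18 and 4 to patUPD18. Their median log2 ratio was -0.02, beside -0.04 for all 10485 genes. Counted by probe set, 1 of 15 measurable member probe sets passed 2-fold towards patUPD18, where 1.95% of all 16703 measurable probe sets did, and 0 passed it towards matUPD18, where 3.27% did. All 4 member genes with several measurable probe sets (Impact, Gcn1, Eif2ak1 and Abcf3) had them in both directions, as did 49.6% of the 4005 such genes. The opposite probe set of Gcn1 was at -0.03, and those of Eif2ak1 lay between -0.20 and 0.15.

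**Figure D4:**
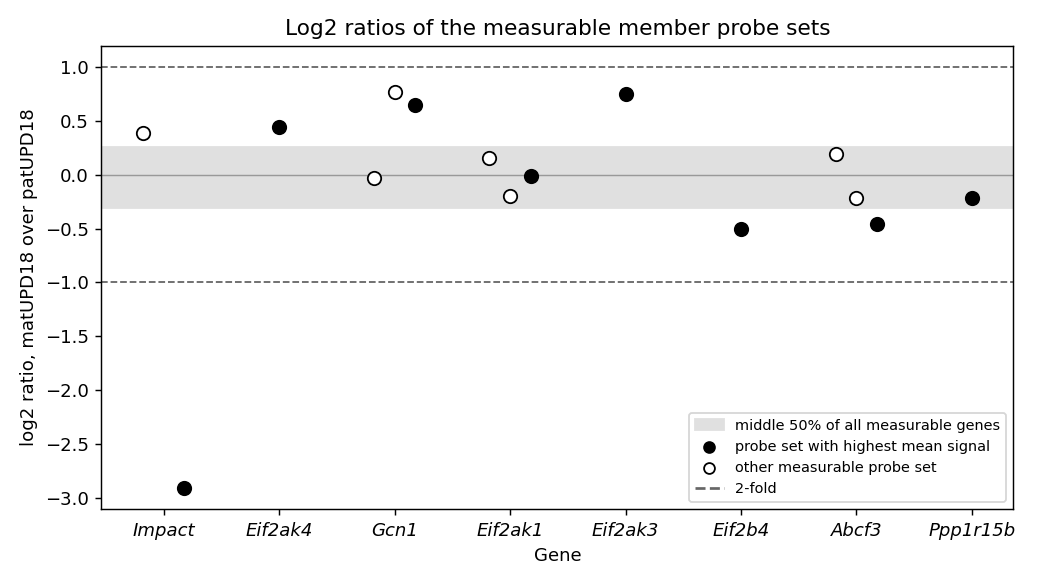
Log2 ratio of matUPD18 over patUPD18 for the 15 measurable probe sets of the 8 measurable member genes, filled for the probe set with the highest mean signal, with the middle 50% of all measurable genes in grey (-0.31 to 0.26) and dashed lines at 2-fold. The filled Impact point lies at -2.91 and its open point at 0.39, and all points of the other genes lie between -0.51 and 0.76.

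The promoters of Eif2ak4, Gcn1 and Eif2ak3 are shown because these were the 3 members that read higher in matUPD18. Each line gives the 100 bases before the outermost annotated start of the gene, from RefSeq (GRCm38.p6), written 5′ to 3′ with CG dinucleotides in capitals.
Eif2ak4, chr2:118388483-118388582, plus strand: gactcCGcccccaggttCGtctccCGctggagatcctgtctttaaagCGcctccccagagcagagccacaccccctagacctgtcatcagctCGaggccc
Gcn1, chr5:115565017-115565116, plus strand: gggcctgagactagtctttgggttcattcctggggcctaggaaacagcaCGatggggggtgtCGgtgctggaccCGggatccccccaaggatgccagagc
Eif2ak3, chr6:70844384-70844483, plus strand: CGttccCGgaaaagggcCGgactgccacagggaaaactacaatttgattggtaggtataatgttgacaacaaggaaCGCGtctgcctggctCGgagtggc
These stretches hold 5, 3 and 6 CG dinucleotides. The windows of the RefSeq promoter table used next are placed by its own start sites, the first of which lie 34, 146 and 31 bases downstream of the outermost starts of these genes. They were used for Eif2ak4, Gcn1, the other 3 kinases, Eif2s1, Eif2b4 and Abcf3, 8 member genes with 9 start sites between them, and not for Impact or Ppp1r15b. The 250 bases before those 9 start sites held 9 to 24 CG dinucleotides (median 14). Over 32851 windows of all genes the median was 6, with quartiles of 2 and 16, so the members' median lay between those quartiles. The motif TGATGNAA, the core of the element bound by ATF4 with C/EBP proteins, was searched on both strands of the same 250 bases. It was found in 0 of the 9 member windows and in 3.45% of all windows, so these letters are not in these windows.

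By brightest probe set, no measurable gene of the wider eIF2 machinery passed 2-fold. Of 21 measurable genes for other eIF2 and eIF2B subunits, the eIF2 alpha phosphatase and the ABCF and GCN1 neighbourhood, 8 leaned to matUPD18, 13 to patUPD18 and 0 passed 2-fold, with a median log2 ratio of -0.11. That median turned to 0.01 after quantile and 0.02 after loess scaling. Of all 10485 measurable genes, 95.5% lay within 2-fold and 5653 leaned to patUPD18. With scaling to the hybridisation controls 20 of the 21 leaned to matUPD18. Among the subunit genes, Eif2b1 had a log2 ratio of -0.40 and Eif2s2 (eIF2 beta) one of -0.31 by its brightest probe set, whereas Eif2b5, the catalytic subunit of eIF2B, was at 0.03. The 6 measurable probe sets of Eif2s2 disagreed, with 4 lower in matUPD18 (log2 ratios -0.12 to -0.70) and 2 higher (0.51 and 1.55), a spread of 2.25 that ranked 25th of the 4005 genes. The last, at 519.2 in matUPD18 and 177.9 in patUPD18, was the 1 probe set past 2-fold among the 41 measurable ones of this machinery. It was measurable only through matUPD18 and was named after its value was seen. Of the phosphatase genes, the catalytic subunit Ppp1cb was at 0.36 with all 4 probe sets higher in matUPD18. Ppp1cc was at -0.20, or 0.13 after quantile scaling and 0.04 after loess scaling, and the stress-induced subunit Ppp1r15a was at -0.11. In the ABCF and GCN1 neighbourhood, Zc3h15, the partner of the GTPase DRG1, was at 0.41 with all 3 probe sets higher in matUPD18, and Abcf2 was at 0.34. Drg1 was at -0.63 by its brightest probe set and at 0.05 and 0.01 by the other 2, and the ribosomal stalk gene Rplp2 was at -0.41.

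The gamma subunit of eIF2 has an X-linked and a Y-linked copy. Eif2s3x read 4242 in matUPD18 and 3269 in patUPD18 (log2 ratio 0.38). Its other measurable probe sets had log2 ratios of 0.85 and -0.19. Eif2s3y, on the Y chromosome, read 1392 in matUPD18 and 1448 in patUPD18 (-0.06). Xist, the RNA of the inactive X chromosome, read 1568 in matUPD18, against 128.1 in patUPD18, and the part of embryo sex in the Eif2s3x values was not tested.

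Of 6 measurable genes for other RWD domain proteins, the fold that IMPACT and GCN2 share, 5 were higher in patUPD18 and 0 past 2-fold. Among all 10485 measurable genes, 5653 were higher in patUPD18 and 95.5% lay within 2-fold. With scaling to the hybridisation controls 5 of the 6 were higher in matUPD18. Rwdd3 had a log2 ratio of -0.59 and Rwdd2a one of -0.56, while Rwdd2b was at 0.06. Among 9 start codon selection genes 0 passed 2-fold. Eif2a, which encodes an initiation factor distinct from eIF2 alpha, was at 0.67 by its brightest probe set (1.23 with scaling to the controls) but at 0.01 by the other. Eif1ax was at 0.11, Eif4g2 at -0.29 and Eif2d at -0.28.

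The eIF3 complex, the scaffold of the initiating small ribosomal subunit, held a 2-fold difference in each direction among 11 measurable genes. Eif3a, its largest subunit, read 12106 in matUPD18 and 5420 in patUPD18, 2.23-fold higher in matUPD18, and its other probe set had a log2 ratio of 0.39 in the same direction. Eif3k read 518.2 in matUPD18 and 1199 in patUPD18 by its only measurable probe set, 2.31-fold lower in matUPD18. Over all measurable genes, 2.7% passed 2-fold towards matUPD18 and 1.78% towards patUPD18. Eif3d was at -0.56 and Eif3m at 0.06. The list's median was -0.28, but -0.04 after quantile and -0.08 after loess scaling. Eif3k did not pass 2-fold with the arrays scaled to the hybridisation controls (-0.65).

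Of 9 measurable kinase regulators, 0 passed 2-fold by brightest probe set, where 95.5% of all 10485 measurable genes lay within 2-fold. However, 1 dim probe set of the chaperone gene Hsp90aa1, measurable only through patUPD18, was at -1.03. Dnajc3, which encodes the PKR and PERK inhibitor P58IPK, came closest to 2-fold and passed it with scaling to the hybridisation controls (1.54). It read 2037 in matUPD18 and 1034 in patUPD18 (log2 ratio 0.98), with other probe sets at 0.56 and -0.02. Prkra, the PKR activator gene, was at 0.16, the chaperone gene Hspa8 at -0.33 and the mitochondrial protease gene Oma1, of the HRI pathway, at -0.29.

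Genes for stress transcription factors and ATF4 targets leaned to patUPD18, with 12 of 16 measurable genes higher there and a median log2 ratio of -0.22, where 5653 of all 10485 genes were higher there. With scaling to the hybridisation controls 13 of the 16 were higher in matUPD18, and the median of the list, 0.35, was below the 0.52 of all genes. Ddit3 (CHOP) was the only one past 2-fold, where 1.78% of all measurable genes passed it towards patUPD18. It read 75.9 in matUPD18 and 189.6 in patUPD18. This is at least 2.25-fold lower in matUPD18, since the matUPD18 signal was under the floor, and it was at -0.61 under hybridisation control scaling. Ddit3 was measurable only through patUPD18, where the limit was 184.9. With matUPD18 at its floor of 84.2, a gene admitted that way passes 2-fold as deposited whatever its value. Atf4 itself read 5611 in matUPD18 and 7118 in patUPD18 (-0.34) and was named after its value was seen. The stress response gene Ddit4 was at -0.68, while Vldlr was at 0.79 (1.36 with scaling to the controls) with all 3 probe sets higher in matUPD18 and the amino acid transporter gene Slc3a2 at 0.28. The heat shock list had the same direction as deposited, with all 5 genes higher in patUPD18. With scaling to the hybridisation controls 3 of the 5 were higher in matUPD18. As deposited, Hspa1a (at least 11.5-fold, its matUPD18 signal being under the floor) and Hspa1b (12.2-fold) passed 2-fold, and the other 3 did not. Signals of the heat shock list summed to 24106 in matUPD18, against 41257 in patUPD18, and its part in these values was not tested.

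Amino acid sensing by mTORC1, the other main amino acid pathway, held 1 gene past 2-fold among 11 by brightest probe set. Over all measurable genes, 1.78% passed it towards patUPD18 and 2.7% towards matUPD18. Castor1, an arginine sensor gene, read 158.8 in matUPD18 and 496.3 in patUPD18 by its only measurable probe set, 3.13-fold lower in matUPD18 (log2 ratio -1.64). It was measurable only through patUPD18, being below the limit of 190.1 in matUPD18. It kept a 2-fold difference under each scaling tried, which does not bear on that limit. Its relative Castor2 was at 0.49 by its brightest probe set, with others at 0.33 and -0.56. Depdc5 was at 0.45 and Nprl2 at -0.29. With scaling to the hybridisation controls, Castor2 (1.05) and Depdc5 (1.01) passed 2-fold towards matUPD18. The dimmest measurable probe set of Sesn1, a leucine sensor gene, was at 1.17 while its others were at -0.26 and -0.53. That dimmest probe set was measurable only through matUPD18. Hsp90aa1 and Sesn1 were named after their values were seen. The median of the list was -0.24.

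**Figure D5:**
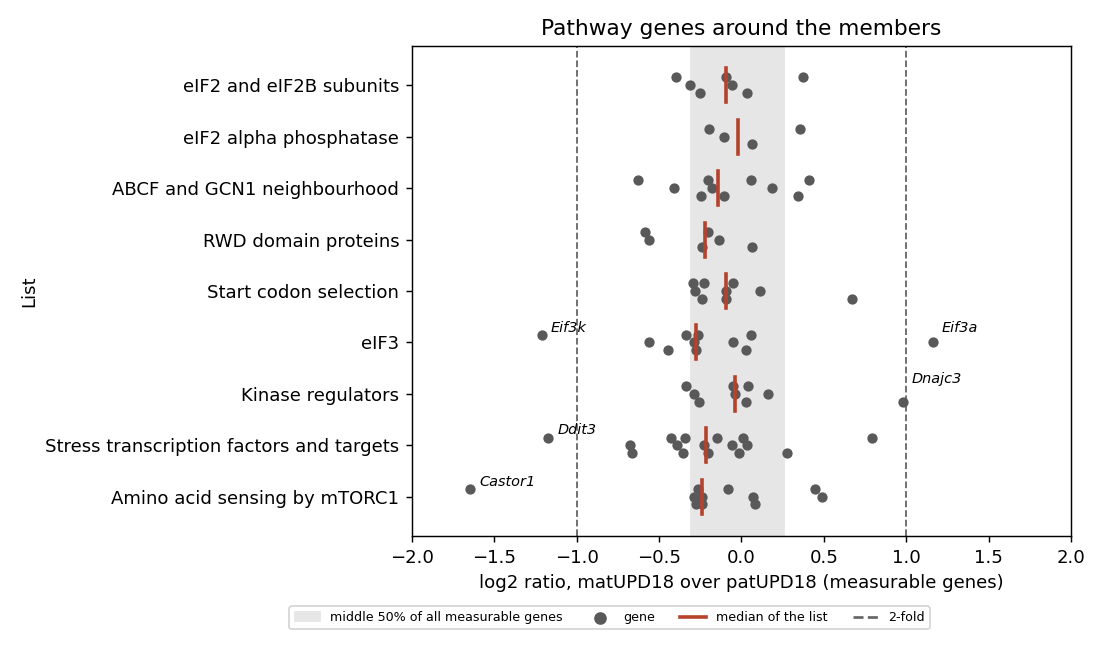
Log2 ratio of matUPD18 over patUPD18 by brightest probe set, as deposited, for each measurable gene (dots) of 9 pathway lists, with the list median as a bar, the middle 50% of all measurable genes in grey and dashed lines at 2-fold. Only Eif3k (-1.21), Eif3a (1.16), Ddit3 (-1.17) and Castor1 (-1.64) lie beyond 2-fold.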

How the data were processed

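RNA of matUPD18 and patUPD18 embryos was measured on 1 array each. Per the labels' protocols it was amplified with a RiboAmp kit and labelled with biotin. Per the submitters' processing notes, the authors made the deposited signal intensities, 1 per probe set, in MAS5/GCOS. The sources used here give no versions or genome build, and detection calls were not used. The 2% trimmed means were 500.003 (matUPD18) and 500.004 (patUPD18), so the arrays had been scaled to a common target, and no further normalization was applied.

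From these intensities, log2 ratios of matUPD18 over patUPD18 were computed with the floor at the 40th percentile, the measurable limit at the 60th and a 2-fold threshold. Genes of like signal are those in the same twentieth of mean signal. Symbols were updated through Entrez identifiers with the RefSeq table (GRCm38.p6), and 932 probe sets with several symbols were left out.

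The members and all lists were chosen with earlier results of these data known. Named genes were the members, Xist, Eif2s3x, Eif2s3y, and from each of 9 pathway lists up to 2 genes per direction and any past 2-fold. The rule also named genes nearest to Impact in signal, which are left out because levels of different probe sets cannot be set against each other. Alternatives were other scalings, floors, limits, thresholds and probe set rules. The procedure was tested on simulated data with planted changes and with noise sized from the spread between probe sets of a gene. Differences between embryos or between arrays were not simulated, so that test does not bear on them. Python 3.11.15, pandas 2.3.3, numpy 2.4.6, statsmodels 0.14.6 and matplotlib 3.10.9 were used.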

Additional observations from a re-analysis of the deposited data

How the results depend on the processing

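No paired analysis was possible because each group had 1 array. Impact was lower in matUPD18 by its brightest probe set under 9 alternatives, at -2.34 with scaling to the hybridisation controls and within 0.44 of -2.91 under the other 8. The median over its 2 measurable probe sets, which ran opposite ways, was -1.26. It was the 1 member gene and the 1 member probe set at least 2-fold higher in patUPD18 under all 12 alternatives. The 0 member genes and 0 member probe sets at least 2-fold higher in matUPD18 became 3 genes (Eif2ak4, Gcn1 and Eif2ak3) and 4 probe sets with scaling to the hybridisation controls, and 2 genes and 3 probe sets at a 1.5-fold threshold. Of these genes, Gcn1 was measurable by its brightest probe set only through matUPD18. Over all genes scaling to the hybridisation controls gave 1639 higher in matUPD18 and 29 higher in patUPD18, against 283 and 187 as deposited. A 1.5-fold threshold gave 1045 and 916, a 3-fold threshold 48 and 28, and a floor at the 60th percentile gave 78 higher in patUPD18. The median of the wider eIF2 machinery moved to 0.46 with scaling to the controls, which adds a constant to every ratio. Of 70 alternative values of the other 7 members, the 7 that moved by more than 0.44 were those under this scaling. With 1 array per group, no setting separates a difference between genotypes from one between embryos, and dim probe sets such as those of Gcn1 and Eif2ak2 limit what could be seen.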
